A study of Drosophila melanogaster with 9 samples.

Results

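The cells described here are *Dl*>GFP cells sorted from the midguts of control adult flies, in which no gene was depleted. They are represented by 3 control libraries of a series of 9, chosen by their labels, and by all 17481 genes of the deposited table, ranked by the mean FPKM over these 3 libraries. FPKM counts sequenced fragments scaled to transcript length and to library size. Levels of different genes can be set side by side only roughly, since amplification and transcript length can both shift FPKM of short or long transcripts. The other 6 libraries come from *gro-RNAi* and *Notch-RNAi* cells, 3 of each, which the study used to ask how loss of the co-repressor Groucho or of the receptor Notch changes intestinal stem cells (ISCs).

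All 3 groups of *D. melanogaster* carried *Dl-Gal4*, *Tub-Gal80ts* and *UAS-GFP*, and the depleted groups a hairpin RNA against *gro* or *Notch* under the same driver. *Dl-Gal4* is active in cells that express *Delta*, and the temperature-sensitive Gal80 blocks it at 18°C. Crosses were kept at 18°C, and adults were shifted at 3 to 5 days of age to 29°C, where they stayed for 4 days. The labels give an age of 5 to 7 days and a wild-type genotype for the controls. About 200 midguts were pooled for each replicate, and about 30000 living GFP-positive cells were sorted from them. A sorted cell is therefore defined by its GFP, a product of the driver, and not by its *Delta* transcript at the time of sorting.

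ISCs renew the gut epithelium. They present the ligand Delta to their daughter cells, where cleaved Notch joins Su(H) on DNA and turns on genes of the Enhancer of split complex, *E(spl)*, which encode bHLH repressors that recruit Groucho and small proteins of the Bearded family. Daughters with high Notch activity become enterocytes, which digest and absorb food. Others become enteroendocrine (EE) cells, which release peptide hormones.

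FPKM carry no read totals. From the steps between low values, the control libraries were estimated to hold about 11200000, 12600000 and 11500000 reads, and 11629 to 11811 genes were above 0 in each. *N* was at 13.9, 16.1 and 9.78 FPKM in *Notch-RNAi* libraries, against 40.9, 36.9 and 28.5 FPKM in control libraries (limma adjusted p = 0.00242). *gro* was at 3.69, 13.8 and 9.53 FPKM in *gro-RNAi* libraries, against 19.9, 27.8 and 15.3 FPKM in control libraries, which missed an adjusted p of 0.05 (limma, 0.094). No 2 libraries held identical values, and the labels do not say that the replicates came from separate crosses, so that spreads and p-values describe these libraries.

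In control cells 7348 genes (42.0%) reached 1 FPKM in all 3 libraries, among them 6875 of 13608 protein-coding genes (50.5%). Another 4396 genes were listed at 0 in all 3. The distribution was steep. The 141 genes averaging 1000 FPKM or more held 78.1% of the summed FPKM, and the 3553 genes between 1 and 10 FPKM held 0.951%. The median over all protein-coding genes was a mean of 1.68 FPKM, and 27.0% of them reached 10 FPKM in all 3 libraries.

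**Figure D1:**
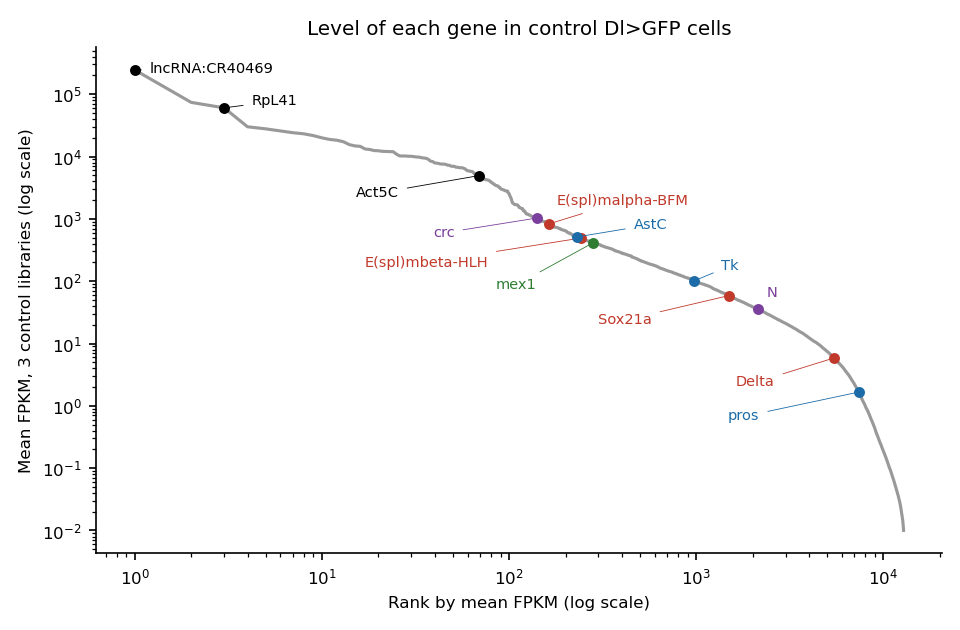
Mean FPKM over the 3 control libraries (vertical axis, log scale) against the rank of the gene (horizontal axis, log scale), drawn down to 0.01 FPKM. Points mark named genes: *E(spl)malpha-BFM* and *E(spl)mbeta-HLH* stand at ranks 163 and 241, *Delta* at rank 5430.

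Genes for ribosomal proteins led the protein-coding genes. All of the 20 highest were of this kind, as were 43 of the 50 highest genes of any class. *RpL41*, which encodes the smallest protein of the large subunit, was highest with 33507, 80618 and 67072 FPKM in libraries 1, 2 and 3. *RpL15* was among the steadiest, with 18855, 19169 and 18409 FPKM. The 82 annotated genes of cytosolic ribosomal proteins held 45.7% ± 3.46 of the summed FPKM (SD, n = 3 libraries), and 77 of them reached 1 FPKM in all 3 libraries.

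The highest gene of all was a noncoding one. *lncRNA:CR40469* (FBgn0058469) is a 214-nt transcript on the plus strand of chromosome X, from 122493 to 122706 on the BDGP6.54 annotation. It was at 203353, 298519 and 231580 FPKM and alone held 15.1% ± 1.17 of the summed FPKM (SD, n = 3 libraries). In depleted cells it was at 76382, 93760 and 231355 FPKM in *gro-RNAi* libraries and at 40133, 50329 and 28948 FPKM in *Notch-RNAi* libraries. All *Notch-RNAi* values lay below the control values (log2 fold change -2.64, SE 0.43, limma adjusted p = 0.00345), a call lost without a filter on low genes (adjusted p = 0.746) and under quantile normalization (adjusted p = 0.113). Part of the other high signal has no name here: the second highest gene, FBgn0085364, had 62962, 93235 and 65636 FPKM and no symbol in the tables used, and the 305 such genes together held 10.3% of the summed FPKM.

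The highest protein-coding gene outside the ribosomal proteins was *His4r*, a histone gene, with 3548, 7752 and 6011 FPKM. Genes of the cytoskeleton, of translation and, further down, of energy supply followed. *Act5C*, a cytoplasmic actin, had 4735, 4770 and 5325 FPKM. *alphaTub84B*, an alpha-tubulin, had 3041, 4759 and 4910.4 FPKM, and *tsr*, the cofilin that severs actin filaments, had 3597, 2124 and 3017 FPKM. *Nacalpha*, which binds nascent chains at the ribosome, varied by a coefficient of variation (CV) of only 1.55% around 4393 FPKM. The 50 translation factor genes with eEF or eIF symbols held 1.15% of the summed FPKM and the 84 nuclear genes of the respiratory chain 1.53%. Outside these groups, *Hsc70-4*, a constitutive chaperone, had 2436, 2906 and 3350.0 FPKM, and *Fer2LCH*, a ferritin chain that stores iron, had 3967, 1662 and 2799 FPKM.

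Progenitor genes are the markers of the labelled cells. Of 10 listed progenitor genes found in the table, 9 reached 1 FPKM in all 3 libraries (90% of the list, against 50.5% of protein-coding genes), and their median was 37.4 FPKM. *Delta* itself (FBgn0000463) lies on the minus strand of chromosome 3R, between 19302731 and 19326217, and had only 6.56, 7.09 and 3.93 FPKM and ranked 5430. It was present in every library, under 7 of the other 9 progenitor genes. The libraries thus held the genes of the label, with the ligand that gave the driver its name among the lower ones.

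The Notch target genes of the list had far higher FPKM than the ligand, and the part of transcript length in this difference was not tested. *E(spl)malpha-BFM* (plus strand of chromosome 3R, from 26010893 to 26011568), a Bearded-family gene, had 844, 985 and 659.8 FPKM. *E(spl)mbeta-HLH* (minus strand of the same arm, from 26005046 to 26006023), a bHLH repressor gene, had 368, 468 and 639 FPKM. The order of the libraries differed between them: *E(spl)malpha-BFM* was lowest in library 3, in which *E(spl)mbeta-HLH* was highest. *Su(H)*, the DNA-binding partner of Notch, had 3.82, 3.30 and 2.74 FPKM.

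Other progenitor genes lay in between. *Sox100B*, an HMG-box factor, had 101, 64.7 and 58.8 FPKM. *Sox21a*, an HMG-box factor needed for progenitors to differentiate, had 103, 30.9 and 42.5 FPKM, a wider range than that of *Sox100B*. The zinc-finger gene *klu*, expressed in enteroblasts, averaged 22.8 FPKM. For all of these library 1 was highest, whereas *mira*, an adaptor of asymmetric division that marks ISCs, varied little (19.0, 22.5 and 17.0 FPKM).

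**Figure D2:**
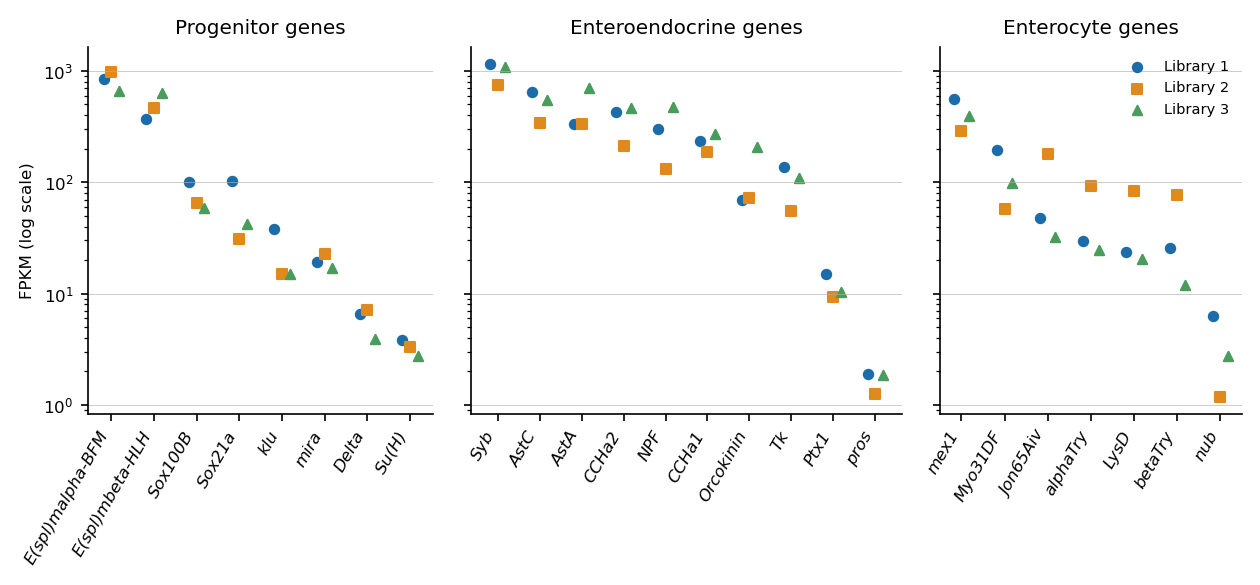
FPKM (vertical axis, log scale) of progenitor, enteroendocrine and enterocyte genes in the 3 control libraries, 1 symbol for each library. *Syb* and the hormone genes stand above *Delta* in every library, and the 4 digestive enzyme genes drawn are highest in library 2.

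Within the *E(spl)* complex the levels differed by orders of magnitude. Of 12 genes, 7 (58.3%) reached 1 FPKM in all 3 libraries, a share near the 50.5% of protein-coding genes. After *E(spl)malpha-BFM* and *E(spl)mbeta-HLH* came *E(spl)m3-HLH*, with 309.8, 198 and 195 FPKM, and *Kaz-m1*, a protease inhibitor gene of the locus, with 47.6, 66.3 and 61.5 FPKM. *E(spl)mgamma-HLH*, *E(spl)m7-HLH* and *E(spl)m6-BFM* averaged 11.6, 7.39 and 5.30 FPKM. The other 5 genes averaged under 1 FPKM, with *E(spl)m8-HLH* at 0.451, 0.667 and 0.582 FPKM. The sum over the complex was 1599, 1740.0 and 1584 FPKM in libraries 1, 2 and 3.

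Most components of the Notch pathway were expressed. Of 24 genes, 22 (91.7%) reached 1 FPKM in all 3 libraries, beside 50.5% of protein-coding genes. *N*, the receptor, averaged 35.4 FPKM, and *kuz*, the protease that makes the first ligand-dependent cut, averaged 49.7 FPKM. *CtBP*, a co-repressor recruited by Hairless, the product of *H*, was the highest of the list with 233, 174 and 158 FPKM. *gro*, the co-repressor of *E(spl)* proteins, averaged 21.0 FPKM, and the inhibitors *numb* and *H* averaged 17.3 and 6.38 FPKM.

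Transcripts of EE hormones were abundant in these cells. In all 3 libraries 50.5% of protein-coding genes reached 1 FPKM and 5.47% reached 100 FPKM. Of 13 hormone genes found, 11 reached the lower threshold and 5 the higher one. Their median of 101 FPKM lay above that of the progenitor list. *AstC* had 654, 339 and 550.1 FPKM, *AstA* had 333, 331 and 699.8 FPKM, and *CCHa2* had 427, 212 and 466 FPKM. In this bulk measurement, few cells with much hormone RNA and many cells with little cannot be told apart.

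As a sum, the hormone genes differed more between libraries than the progenitor genes did. *NPF* had 299.6, 130.3 and 471 FPKM and *Tk*, the tachykinin gene, had 138, 55.4 and 110.3 FPKM. *Orcokinin* had 69.4, 71.5 and 206 FPKM. Summed over the list the libraries held 2304, 1451 and 2879 FPKM, so that library 2 was lowest. The highest sum was 1.98 times the lowest, against 1.09 times for the progenitor list. The progenitor sum came mostly from *E(spl)malpha-BFM* and *E(spl)mbeta-HLH*, whose orders of libraries differed. Gene by gene the contrast was smaller, with a median CV of 37.2% against 27.9% among members averaging 1 FPKM or more. *Dh31* and *Mip* were lower, with averages of 22.6 and 27.1 FPKM.

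The fate factors of EE cells were low beside the hormones. *Ptx1*, a homeobox gene of EE subsets, had 14.9, 9.39 and 10.3 FPKM. *pros*, the homeobox gene whose protein defines EE cells, had 1.90, 1.25 and 1.85 FPKM. The proneural gene *sc* had 1.30, 0.365 and 0.199 FPKM, or an estimated 21, 7 and 3 reads, and *ase* had 0.0759, 0.0337 and 0.0368 FPKM, or an estimated 2, 1 and 1 reads. In all, 3 of 12 fate factors (25%) reached 1 FPKM in all 3 libraries, beside 50.5% of protein-coding genes. Another 8 stayed below it in all 3, beside 43.2% of protein-coding genes.

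Genes for processing and releasing hormones lay between these levels. *Syb*, a vesicle fusion protein that many cell types use, had 1162, 749 and 1081 FPKM. The prohormone-processing genes were lower: *svr*, a carboxypeptidase, averaged 43.4 FPKM, *7B2*, a helper of the prohormone convertase, averaged 32.1 FPKM, and *amon*, the convertase itself, averaged 4.22 FPKM. *nSyb* and *Rab3*, of regulated exocytosis, averaged 3.40 and 2.57 FPKM. The list as a whole had 12 of 20 genes (60%) at 1 FPKM in all 3 libraries, beside 50.5% of protein-coding genes.

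Enterocyte genes were present at lower levels. Of 39 genes, 26 (66.7%) reached 1 FPKM in all 3 libraries, beside 50.5% of protein-coding genes. The list median was 5.85 FPKM, beside 1.68 FPKM over all protein-coding genes. The highest was *mex1*, a midgut-specific gene of absorptive cells, with 565, 286 and 397 FPKM, followed by *Myo31DF*, a brush-border myosin, with 194, 57.1 and 98.8 FPKM. *nub*, the POU factor that marks enterocytes, had 6.24, 1.17 and 2.74 FPKM. These genes were lowest in library 2.

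The digestive enzymes of the same list, taken as sums, went the other way. The 7 trypsin genes summed to 70.1, 204 and 50.8 FPKM in libraries 1, 2 and 3, and the 14 *Jon* protease genes to 199.7, 333 and 82.4 FPKM. The 4 lysozyme genes summed to 57.4, 132 and 32.3 FPKM. Library 2 was highest and library 3 lowest for each of the 3 sums. Counted by gene, of the digestive enzyme genes averaging 1 FPKM or more, 15 were highest in library 1, 11 in library 2 and 2 in library 3. These families hold close copies, and how reads were shared among them was not tested, so that single members are uncertain.

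**Figure D3:**
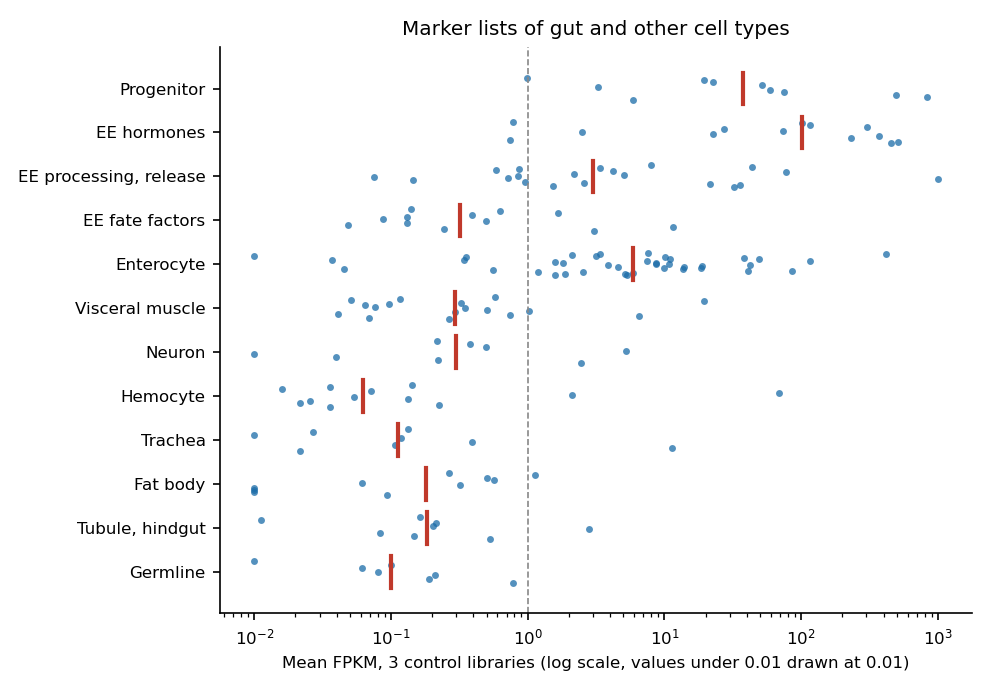
Mean FPKM over the 3 control libraries (horizontal axis, log scale) of every matched gene of 12 marker lists, 1 point for each gene, with the list median as a bar and 1 FPKM as a dashed line. The medians of the progenitor, hormone, hormone processing and enterocyte lists lie above 1 FPKM and those of the other 8 lists below 0.4 FPKM.

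Markers of cells outside the epithelium were near 0 for most genes. Of 17 muscle genes, 2 reached 1 FPKM in all 3 libraries, *Zasp52* (31.9, 13.6 and 13.2 FPKM) and *Mef2* (8.92, 5.50 and 5.21 FPKM). Their summed level was 21.2 to 48.3 FPKM, and *Act57B*, an actin of muscle, stayed at 0.501 FPKM or less. The tracheal list had 1 of 8 genes at this level, *dysf*, with a mean of 11.4 FPKM, and its defining gene *trh* averaged 0.118 FPKM. No gene of the fat body or germline lists reached 1 FPKM in all 3 libraries.

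Blood and nerve markers gave the same picture with single exceptions. Among 12 hemocyte genes, *crq*, a scavenger receptor that also acts in other phagocytic cells, had 88.7, 53.3 and 65.3 FPKM, whereas *Hml* and *NimC1* averaged 0.0359 and 0.223 FPKM. Among 8 neuronal genes, *elav* had 6.30, 5.54 and 3.82 FPKM and *Appl* averaged 2.43 FPKM, while *VGlut* averaged 0.00471 FPKM. *elav* overlaps exons of other genes on both strands, and its value is less certain for that. The parts of other cell types in these libraries were not tested.

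Transcription factor genes were taken from 6 lists by family, 191 genes in all, including *side*, which is no transcription factor gene. Of these, 110 (57.6%) reached 1 FPKM in all 3 libraries, a share near the 50.5% of protein-coding genes. In all 3 libraries 10 of the 191 reached 100 FPKM, beside 5.47% of protein-coding genes. bZIP factors were the leading family. Of 18, 15 reached 1 FPKM, with a median of 97.3 FPKM, against 4.14 FPKM over all 6 lists. *crc*, the fly ATF4 of the integrated stress response, was highest with 1373, 741 and 973 FPKM. *Xbp1*, the factor of the unfolded protein response, had 663, 448 and 598 FPKM. *REPTOR-BP*, a partner of the TORC1-regulated factor REPTOR, had 291, 482 and 289.6 FPKM. Guts were digested and cells sorted before RNA was extracted, and the part of this handling in these levels was not tested.

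The AP-1 subunits *kay* and *Jra* averaged 138 and 110.1 FPKM, and *cnc*, the fly Nrf2 of the oxidative stress response, averaged 145 FPKM. *Pdp1*, a PAR-domain bZIP factor, had 161, 168 and 128 FPKM. Of the bHLH list, led by the *E(spl)* genes, 19 of 35 (54.3%) reached 1 FPKM in all 3 libraries, beside 50.5% of protein-coding genes. The 35 include *side*, which is no bHLH gene, at a mean of 0.0476 FPKM. *Myc*, the growth regulator, had 212, 119 and 79.0 FPKM, a 3-library spread that its partner *Max* did not share (92.2, 69.9 and 95.3 FPKM).

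Effectors of signalling pathways were mostly present, 33 of 43 (76.7%) at 1 FPKM in all 3 libraries, beside 50.5% of protein-coding genes. *Rel*, the NF-kappaB factor of the Imd immune pathway, had 548, 228 and 486 FPKM. *Ets21C*, an ETS factor downstream of JNK and EGFR signalling, was close to constant with 185, 202 and 189.5 FPKM. *Stat92E*, the effector of JAK-STAT signalling, averaged 67.1 FPKM, and the Hippo pathway pair *yki* and *sd* averaged 58.7 and 74.7 FPKM.

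Homeobox genes formed the sparsest family, with 9 of 38 (23.7%) at 1 FPKM in all 3 libraries and a median of 0.149 FPKM. *exd* averaged 36.2 FPKM and *cad*, of posterior gut identity, averaged 14.6 FPKM. *lab*, the Hox gene of the copper cell region, averaged 3.77 FPKM. Of the zinc-finger list 24 of 39 genes (61.5%) reached 1 FPKM, among them *GATAe*, the midgut GATA factor, with 57.9, 43.1 and 30.4 FPKM. *ttk*, a repressor of EE fate, had 54.1, 33.6 and 43.8 FPKM. Of 18 nuclear receptor genes 10 (55.6%) reached 1 FPKM in all 3 libraries, beside 50.5% of protein-coding genes. *Eip75B* was the highest of them at a mean of 26.1 FPKM, and *EcR* averaged 4.14 FPKM.

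**Figure D4:**
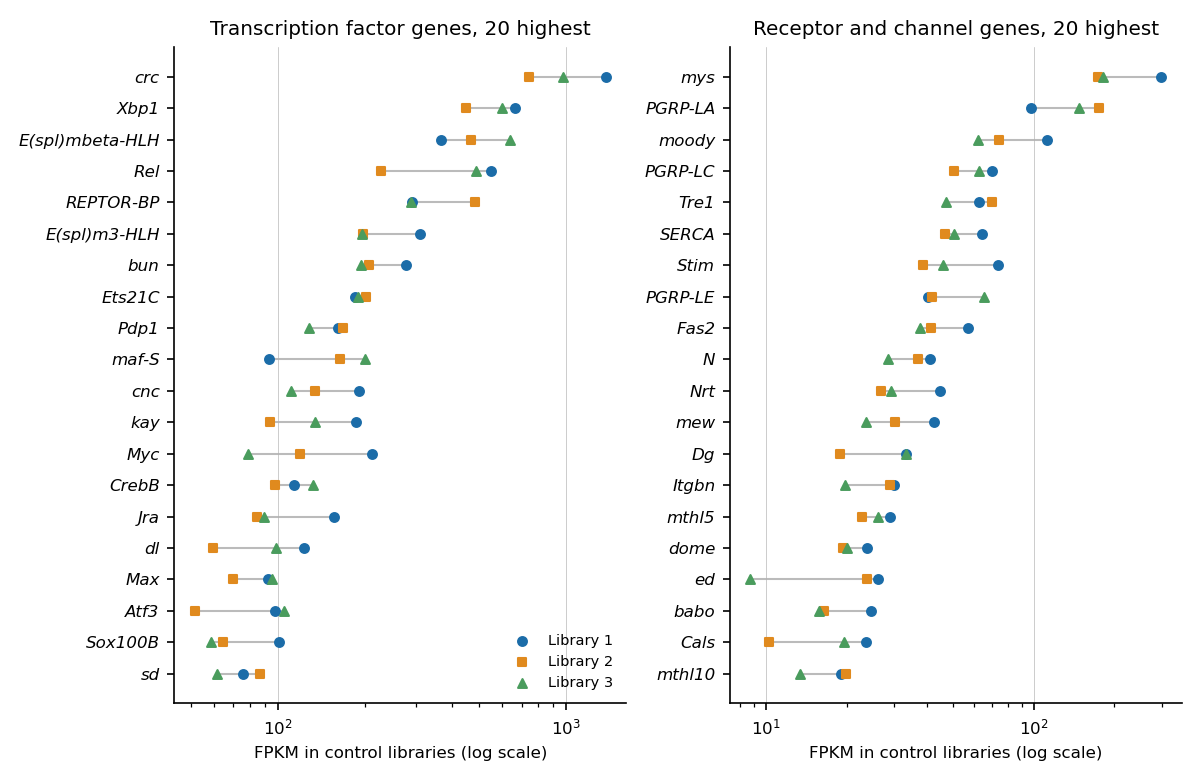
FPKM in the 3 control libraries (horizontal axis, log scale) of the 20 highest transcription factor genes and the 20 highest receptor and channel genes of the lists, 1 symbol for each library, joined by a line. *crc* and *mys* lead the 2 panels, and library 1 is highest for most receptor genes.

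Receptor genes were fewer and lower. Of 146 receptor and channel genes in 5 lists, 48 (32.9%) reached 1 FPKM in all 3 libraries, beside 50.5% of protein-coding genes. The median was 0.444 FPKM, and 1 gene reached 100 FPKM in all 3 libraries. That one was *mys*, the beta-integrin by which cells hold to the basement membrane, with 299.6, 173 and 181 FPKM. The alpha-integrin *mew* averaged 32.1 FPKM and the alpha-integrin *if* 0.0927 FPKM. *shg*, the E-cadherin of adherens junctions, averaged 8.77 FPKM.

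Genes of the peptidoglycan recognition protein (PGRP) family were prominent among the receptor lists. *PGRP-LA* had 97.7, 176 and 148 FPKM, *PGRP-LC*, the membrane receptor of the Imd pathway, had 70.0, 50.3 and 62.5 FPKM, and the intracellular *PGRP-LE* had 40.1, 41.7 and 64.9 FPKM. Among receptors for growth signals, *dome*, the cytokine receptor of JAK-STAT signalling, averaged 21.1 FPKM. *Pvr*, the PDGF and VEGF receptor, had 21.1, 9.19 and 10.7 FPKM, and *Egfr* had 7.63, 5.03 and 4.56 FPKM. The TGF-beta family receptors *babo*, *put*, *sax* and *tkv* averaged between 8.15 and 19.0 FPKM, and the Wnt receptor *fz2* averaged 14.6 FPKM.

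G-protein-coupled receptors were mostly silent, with 37 of 49 below 1 FPKM in all 3 libraries, beside 43.2% of protein-coding genes. *moody* (112, 73.9 and 61.7 FPKM) and *Tre1* (62.5, 69.9 and 46.8 FPKM), which are related to each other, were the highest. Of the hormone receptors, *Dh44-R2* averaged 5.88 FPKM and *NPFR* averaged 0.489 FPKM. Among channels and calcium handling genes, *SERCA*, *Stim* and *Orai*, which fill calcium stores, averaged 53.6, 52.6 and 10.5 FPKM. The mechanosensitive channel *Piezo* averaged 1.01 FPKM.

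Ligands of the same pathways were also found in the sorted cells. Of 10 JAK-STAT genes 7 (70%) reached 1 FPKM in all 3 libraries, beside 50.5% of protein-coding genes. The cytokine *upd3* (43.8, 52.6 and 39.8 FPKM) was higher than *upd2* (36.9, 14.8 and 17.7 FPKM), while *upd1* averaged 0.141 FPKM. *Socs36E*, a feedback inhibitor and target of the pathway, had 90.9, 61.4 and 42.7 FPKM. Of 20 EGFR pathway genes 18 (90%) reached 1 FPKM in all 3 libraries. The ligand *spi* had 179, 128 and 170.2 FPKM, the ligands *Krn* and *vn* averaged 20.8 and 8.60 FPKM, and the inhibitor *sty* had 192, 237 and 97.1 FPKM.

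Cell cycle genes were expressed at moderate levels. Of 39 genes, 34 (87.2%) reached 1 FPKM in all 3 libraries, beside 50.5% of protein-coding genes. The list median was 5.94 FPKM, beside 1.68 FPKM over all protein-coding genes. *PCNA*, the sliding clamp of DNA synthesis, had 29.9, 41.4 and 44.0 FPKM, and *geminin*, an inhibitor of re-replication, had 41.5, 59.2 and 51.1 FPKM. The mitotic genes *Cdk1*, *CycA* and *stg* averaged 25.7, 15.9 and 9.97 FPKM, and *CycE*, which drives entry into S phase, averaged 0.657 FPKM. Among growth genes *Thor*, the translation inhibitor regulated by TOR, was highest with 865, 659 and 1088 FPKM.

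Stress genes were high and some of them uneven. Of 29 genes, 20 (69.0%) reached 1 FPKM and 8 reached 100 FPKM in all 3 libraries, beside 50.5% and 5.47% of protein-coding genes. *GstD1*, a glutathione transferase, had 1564, 1685 and 1849.6 FPKM. The small heat-shock genes *Hsp23* (70.7, 636 and 388 FPKM) and *Hsp27* (8.50, 72.9 and 96.4 FPKM) were lowest in library 1, but *Hsp22* and *Hsp83* were lowest in library 2. The heat-shock genes thus did not share 1 order of libraries. The part of tissue digestion and sorting in the levels of stress genes was not tested.

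Immune genes, a list of effectors and inhibitors, were split. Of 16 genes, 5 (31.25%) reached 1 FPKM in all 3 libraries, beside 50.5% of protein-coding genes, and 4 of these reached 100 FPKM. The amidase gene *PGRP-LB*, which degrades peptidoglycan, had 576, 866 and 970.0 FPKM, and the Imd inhibitor *pirk* had 113, 101 and 107 FPKM. The antimicrobial peptide gene *AttD* had 169, 148 and 164 FPKM. The related *AttA*, *DptA* and *CecB* were listed at 0 in every control library.

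The 3 libraries were close but not interchangeable. Over 7990 genes averaging 1 FPKM or more, the median CV was 23.6%, and it was 27.4% between 1 and 10 FPKM and 58.3% between 0.1 and 1 FPKM. Libraries 1 and 2 were farthest apart, with 1269 genes (15.9%) differing over 2-fold on the log2(FPKM + 0.1) scale, against 789 for libraries 1 and 3 and 773 for libraries 2 and 3. Across these genes, which are not independent replicates, Pearson's r of log2 values was 0.903 for libraries 1 and 2 and 0.922 for each other pair.

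The difference between libraries 1 and 2 went with transcript length. Among protein-coding genes averaging 10 FPKM or more, the median log2 difference of library 2 from library 1 was 0.69 for the 112 genes whose longest transcript is under 500 nt and -0.55 for the 528 genes over 4000 nt. It fell steadily through the length classes between, at 0.23, -0.11 and -0.44. Library 1 was the highest of the 3 for 431 of the 528 longest genes and library 2 for 68 of the 112 shortest. Library 1 was also highest for 43 of the 59 receptor genes and 81 of the 111 transcription factor genes that averaged 1 FPKM or more. At the other threshold, 10 FPKM or more, it was highest for 1921 of all 4151 protein-coding genes. The part of transcript length in the spread of single genes was not tested.

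Genes of the widest spread by the ratio of the highest to the lowest library were all small RNA genes. *snoRNA:Me18S-U1356b* had 2474 FPKM in library 1 and was listed at 0 in the other 2, and its sister copy *snoRNA:Me18S-U1356c* had 2194 FPKM in library 2 alone. Each transcript is only 79 nt long. Whether reads were split between the copies was not tested, and their values are uncertain. Of the other 8 genes, 7 were snoRNA genes and 1 was the miRNA gene *mir-2b-2*. Exact zeros of this kind can be failed estimates.

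Among 4151 protein-coding genes averaging 10 FPKM or more, a list chosen after these values were seen, 647 differed over 2-fold and 27 over 5-fold between libraries. *CG8299* had 65.6, 0.674 and 0.736 FPKM, so that library 1 alone was high. *CG18404* was the reverse, with 2.75, 122 and 158 FPKM. *SmD3*, a core protein of the spliceosome, had 12.0, 102 and 219 FPKM, and the metallothionein gene *MtnC* had 14.7, 139 and 33.1 FPKM.

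The baseline was then set against the depleted cells with limma on log2(FPKM + 0.1), over 11493 genes that averaged 0.1 FPKM or more in the 9 libraries. In *gro-RNAi* cells 720 genes were higher (6.26%) and 141 were lower (1.23%) than in control cells at an adjusted p under 0.05. In *Notch-RNAi* cells 2806 genes were higher (24.4%) and 493 were lower (4.29%). Both comparisons use the same 3 control libraries. All tested genes had a median log2 fold change of 0.27 and 0.46, and with libraries centred on the same median the counts became 212 higher and 309 lower for *gro-RNAi* and 958 higher and 1294 lower for *Notch-RNAi*. Without *gro-RNAi* library 2 or 3 or control library 2 or 3, the *gro-RNAi* calls numbered 313, 406, 470 and 338, and without *Notch-RNAi* library 1 or 2 the *Notch-RNAi* calls numbered 1561 and 1747.

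**Figure D5:**
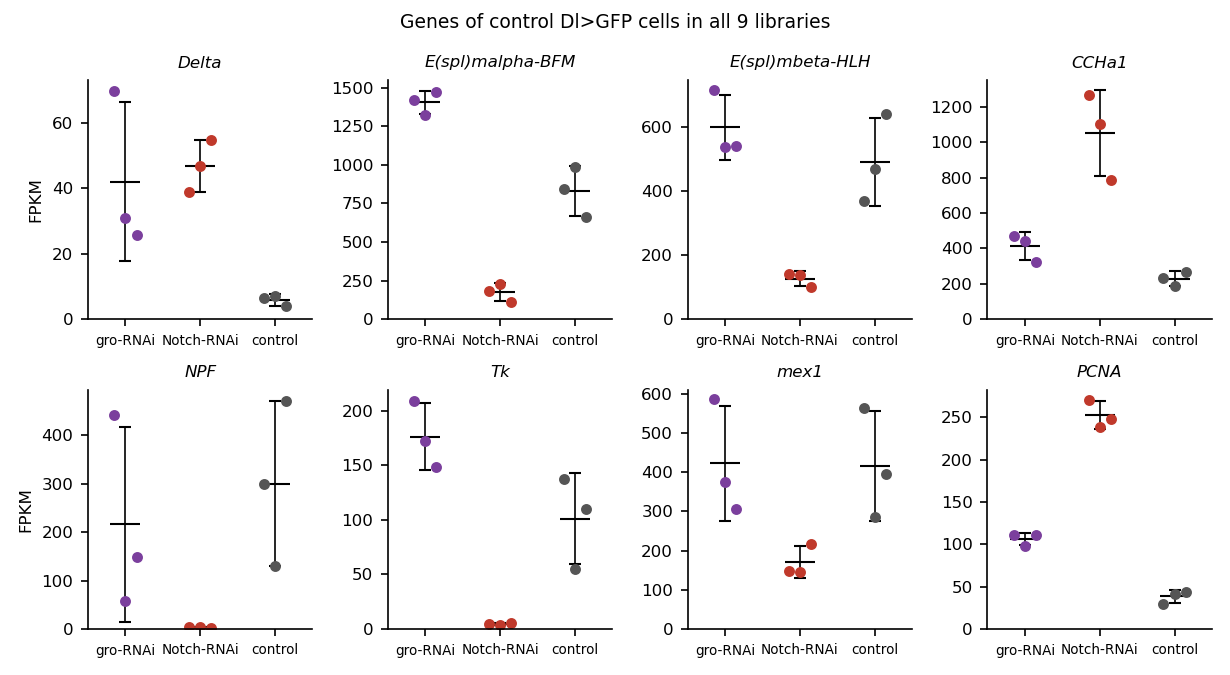
FPKM (vertical axes, from 0) of 8 genes in *gro-RNAi*, *Notch-RNAi* and control libraries, 1 point for each library, with bars for the mean and SD (n = 3 libraries). *Delta* and *PCNA* are lowest in the control libraries, and *NPF* and *Tk* are near 0 in the *Notch-RNAi* libraries.

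*Delta* was low in control cells relative to both depleted groups. It had 69.7, 30.8 and 25.6 FPKM in *gro-RNAi* libraries and 38.8, 46.7 and 54.7 FPKM in *Notch-RNAi* libraries, against 6.56, 7.09 and 3.93 FPKM in control libraries, with no overlap. On the log2 scale it rose by 2.72 (SE 0.38, limma adjusted p = 0.00484) in *gro-RNAi* and by 3.00 (SE 0.38, limma adjusted p = 0.00106) in *Notch-RNAi*, and after centring the *gro-RNAi* value was 2.36. The *gro-RNAi* call was lost with only the 6 libraries compared (adjusted p = 0.0549), and over all alternatives its adjusted p ranged from 0.00342 to 0.0549. Of the 10 progenitor genes tested, 2 rose in *gro-RNAi*, where 6.26% of all tested genes were higher. In *Notch-RNAi* 2 rose, a share near the 24.4% of all tested genes, and 3 fell, beside 4.29% of all tested genes. The 3 that fell were *klu*, *E(spl)malpha-BFM* and *E(spl)mbeta-HLH*, and both *E(spl)* genes are counted again with their complex below.

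The high *E(spl)* levels of control cells were not kept in *Notch-RNAi* cells. There 7 of the 12 genes fell and 1 rose, beside 4.29% and 24.4% of all tested genes. The median log2 fold change was -1.87, beside 0.46 over all tested genes, and the 7 fell in each fit that left out 1 library. *E(spl)malpha-BFM* had 182, 228 and 113 FPKM in *Notch-RNAi* libraries, against 844, 985 and 659.8 FPKM in control libraries (log2 fold change -2.29, SE 0.25, limma adjusted p = 0.000679). *E(spl)m3-HLH* had 24.4, 26.2 and 24.1 FPKM, against 309.8, 198 and 195 FPKM in control libraries (log2 fold change -3.19, SE 0.20, limma adjusted p = 6.91e-05). In *gro-RNAi* cells 2 of the 12 genes rose and none fell by limma, beside 6.26% and 1.23% of all tested genes. The median over the 12 was 0.75, beside 0.27 over all tested genes.

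Of the 13 hormone genes, 2 rose and 3 fell in *Notch-RNAi* cells, where 24.4% of all tested genes were higher and 4.29% lower. *NPF* had 4.63, 3.92 and 2.57 FPKM in *Notch-RNAi* libraries, against 299.6, 130.3 and 471 FPKM in control libraries (log2 fold change -6.16, SE 0.70, limma adjusted p = 0.000715). *Tk* and *Dh31* fell as well, by 4.40 and 3.82 on the log2 scale. *CCHa1*, another peptide hormone gene, had 1266, 1106 and 786 FPKM in *Notch-RNAi* libraries, against 234, 187 and 269 FPKM in control libraries (log2 fold change 2.18, SE 0.23, limma adjusted p = 0.000606). *AstC* also passed the threshold (log2 fold change 1.12, limma adjusted p = 0.033), a call lost after centring (adjusted p = 0.147) and without any single *Notch-RNAi* library, control library 2 or control library 3. In *gro-RNAi* cells limma called 0 of the 13 hormone genes, 5 of which had an unadjusted p under 0.05.

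The fate factors of EE cells, low in control cells, were higher in part of the list. In *Notch-RNAi* 8 of 12 rose and 0 fell, with a median log2 fold change of 2.62, beside 24.4% of all tested genes higher and a median of 0.46. After centring 8 rose and 1 fell. *pros* had 7.85, 10.4 and 8.07 FPKM in *Notch-RNAi* libraries, against 1.90, 1.25 and 1.85 FPKM in control libraries, with no overlap (log2 fold change 2.34, SE 0.34, limma adjusted p = 0.00213). In *gro-RNAi* 3 of the 12 rose, beside 6.26% of all tested genes, and 0 were called without *gro-RNAi* library 2, without control library 3 or with only the 6 libraries compared. In the fit of all 9 libraries 7 of the 12 had an unadjusted p under 0.05.

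Part of the cell cycle list was higher in depleted cells. Of 39 genes, 18 rose, 0 fell and 21 were not called in *gro-RNAi*, where 6.26% of all tested genes were higher. In *Notch-RNAi* 22 rose, 2 fell and 15 were not called, where 24.4% of all tested genes were higher. The list had medians of 1.16 and 1.24 on the log2 scale, against 0.27 and 0.46 over all tested genes. With only the 6 libraries compared, 9 rose in *gro-RNAi*. *PCNA* had 111, 98.2 and 110.5 FPKM in *gro-RNAi* libraries and 271, 239 and 249 FPKM in *Notch-RNAi* libraries, against 29.9, 41.4 and 44.0 FPKM in control libraries. Its log2 fold changes were 1.49 (SE 0.17, limma adjusted p = 0.00233) and 2.73 (SE 0.17, limma adjusted p = 6.39e-05).

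Some of the highest genes of the baseline did not pass the threshold in either comparison. *crc* had 1049.6, 1228 and 960.0 FPKM in *gro-RNAi* libraries and 866, 895 and 704 FPKM in *Notch-RNAi* libraries, against 1373, 741 and 973 FPKM in control libraries. After centring, *crc* was lower in *Notch-RNAi* (log2 fold change -0.79, limma adjusted p = 0.0272). *mys* likewise missed the threshold in both. Of 38 enterocyte genes tested, 1 was higher and 1 lower in *gro-RNAi*, where 6.26% of all tested genes were higher. In *Notch-RNAi* 0 were higher, beside 24.4% of all tested genes, and 3 were lower. With so few genes, the lower calls were near the 1.23% and 4.29% of all tested genes. One of the 3 was *mex1*, at 149, 146 and 217 FPKM in *Notch-RNAi* libraries, against 565, 286 and 397 FPKM in control libraries (log2 fold change -1.25, limma adjusted p = 0.0172), and this call was lost without control library 1 (adjusted p = 0.051), *Notch-RNAi* library 1 (0.0717) or *Notch-RNAi* library 2 (0.0745).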

How the data were processed

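The authors amplified RNA of sorted cells (PicoPure extraction, RiboAmp amplification), ran it on an Illumina GA II sequencer and deposited FPKM for 17481 genes in 9 libraries. The submitters' processing notes name STAR 2.5.2b and BDGP6; the program, annotation and strand setting behind the FPKM are not given in the sources used here, nor are the sex of the flies and the *gro* hairpin line. Amplification and transcript length can both shift FPKM of short or long transcripts.

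Columns were matched to groups by their labels. Symbols (17176 of 17481 IDs) and gene models came from a gene name table and Ensembl release 115 (BDGP6.54); 26 listed names, *esg* among them, were not matched. No sequence is shown. Levels are means over the 3 control libraries with SD or CV and no test. Estimated depths rest on low values (under 0.3 FPKM) of single-transcript genes of at least 2500 nt, of which 77.0% to 81.8% lay within 0.1 of whole reads; they cover counting error only.

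Comparisons used limma 3.58.1 in R 4.3.3 (lmFit, eBayes with trend) on log2(FPKM + 0.1), in 1 fit of all 9 libraries without a replicate block, with Benjamini-Hochberg adjustment. The fit was tested on simulated data. The named genes are the 20 highest protein-coding genes, the highest of other classes, members of 31 lists and the 10 genes of widest spread. The lists and these choices were made with earlier results of these data known. The highest genes outside the ribosomal proteins and the comparison of *lncRNA:CR40469* were chosen after their values were seen. Alternatives were other pseudocounts (1, 0.01), filters (1 FPKM, none), scalings, sets of libraries, a replicate block, and each library left out. Tables and plots were made with pandas 2.3.3, numpy 2.4.6 and matplotlib 3.10.9 in Python 3.11.15.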

Additional observations from a re-analysis of the deposited data

How the results depend on the processing

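Of 65 alternative values for the counts, shares and ranks, 52 stayed within the limits set for them and 13 moved. The 100 highest genes held 74.6% of the summed FPKM, and 69.4% when only protein-coding genes were ranked. The median CV of 23.6% was 16.6% to 23.0% with 1 control library left out, where fewer samples enter. For *gro-RNAi* against control, 861 genes were called. This became 521 after centring on the same median, 450 under quantile normalization, 194 with only the 6 libraries compared and 539 with a replicate block, and 313 to 865 with 1 library left out. For *Notch-RNAi* against control, 3299 genes were called, 2954 with the block and 1561 to 2879 with 1 library left out. The cause of these moves was not tested. Same-numbered libraries did not deviate together (correlations of -0.03 to 0.07, and of -0.09 to 0.12 for other pairs). Whether same-numbered samples were handled together cannot be told from these values.

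Of 26 calls for named genes, 18 held under all 14 alternatives each and none changed sign. FPKM without read totals limit what can be said of genes under 1 FPKM, where the CV of 58.3% sets the precision.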

Other observations

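Sex-linked genes were read after their values were seen. None of the 20 annotated protein-coding genes of the Y chromosome reached 1 FPKM in all 3 control libraries. *lncRNA:roX1* and *lncRNA:roX2*, the RNAs that coat the male X chromosome in dosage compensation, had 0.377, 0.0907 and 0.208 FPKM and 0.145, 0.323 and 0.229 FPKM, while *Sxl*, whose protein is made in females, had 49.9, 44.2 and 41.0 FPKM. The sex of the flies is not stated. Of 79 protein-coding genes on chromosome 4, 65.8% reached 1 FPKM, against 50.5% of all protein-coding genes.

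All 312 tRNA genes and all 37 genes of the mitochondrial genome were listed at 0 in every control library. Since every cell uses them, this says only how they are listed in the table. Among the steadiest protein-coding genes averaging 10 FPKM or more were *PI31*, a proteasome regulator, with 28.9, 28.8 and 28.8 FPKM, and *Brms1*, with 14.5, 14.3 and 14.4 FPKM.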
